A study of Mus musculus with 7 samples.

Results

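The 35 genes described here make, move, store and export cholesterol, and they were chosen by name as genes of the sterol pathway. All 35 were among the 25033 genes listed for each library and all 35 were among the 13462 genes with enough reads to be tested. They were measured by RNA sequencing in T-cells taken at 15 months of age from C57BL/6J mice, 4 with an ORP4L knock-in (ORP4L KI) and 3 wild-type (WT) littermates, each giving 1 library. The knock-in places the coding sequence of human ORP4L, an oxysterol-binding protein, at the Rosa26 locus under a CAG promoter and behind a stop cassette flanked by loxP sites, and Cre driven by the Lck promoter, which is active in T-cells, removes the stop. Whether the WT littermates carry the Cre transgene is not given in the sources used here. The ORP4L KI mice of the study were moribund, and the methods name blood and spleen as sources of T-cells without saying which source each library had. They also describe a kit for naive CD4+ T-cells, a step meant to remove other blood cells, and later culture with IL-2 and PHA, without saying whether the sequenced cells went through either. Total counts ran from 12918187 to 15912921 in WT and from 16757959 to 19665679 in ORP4L KI. Reads assigned to Osbp2, the mouse gene of ORP4L, numbered 0, 0 and 1 in WT and 155 to 742 in ORP4L KI, and human ORP4L reads cannot be told apart from mouse Osbp2 reads in these counts.

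Cholesterol level in an animal cell is held by opposed transcription factors. SREBP2 is made as a membrane protein of the endoplasmic reticulum, where INSIG proteins hold it together with its escort SCAP when sterol is plentiful. When sterol is scarce, SCAP carries it to the Golgi for cleavage, and the released part switches on the enzymes of cholesterol synthesis and genes of sterol uptake. The liver X receptors LXRα and LXRβ are switched on by oxysterols and raise the sterol exporters ABCA1 and ABCG1, MYLIP, which marks lipoprotein receptors for degradation, and the SREBP1 gene. Dividing lymphocytes depend on sterol synthesis for new membrane. Oxysterol-binding proteins such as ORP4L bind sterols, which is why genes driven by SREBP2 (20 members) were set against genes driven by LXR (4 members: Abca1, Abcg1, Mylip and Srebf1).

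The lists were set by the known roles of the genes, not by sequence. Letters that SREBPs and their partner factors read are shown first, for members with such letters before a RefSeq start site, and no motif of LXR was searched. Promoter windows of 300 bases, from 250 before to 50 after the RefSeq transcription start on GRCm38.p6, were matched for 29 of the 35 members. Matches on either strand are in capitals: the sterol regulatory element core CACCCCAC, the E-box CACGTG, which SREBPs can also bind, the CCAAT box (printed as ATTGG where it lies on the other strand) and the GC box GGGCGG (or CCGCCC). The 30-base stretches below lie before the RefSeq start used for the window and are written 5′ to 3′ along the gene. Hmgcs1 and Acat2 are the members with a core, and Insig1, Sc5d and Scap stand for those with an E-box. Idi1, Srebf2 and Cyp27a1 are among the members whose ORP4L KI libraries all lay below WT, and of these genes only Cyp27a1 was called below.
Hmgcs1: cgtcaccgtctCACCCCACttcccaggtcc
Acat2: tggatcctccaCACCCCACcctaacccgac
Insig1: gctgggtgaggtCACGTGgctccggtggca
Sc5d: ctacgcggcgacCACGTGaccgccgcgacc
Scap: cgccgccgggagCACGTGtggaGGGCGGcg
Idi1: catggtccaaggtgccATTGGctggcgacc
Srebf2: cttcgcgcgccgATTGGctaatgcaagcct
Cyp27a1: ggctagtcctctATTGGcCCGCCCcgggac
The Hmgcs1 core began 136 bases and the Acat2 core 181 bases before the start. The stretches lie at chr13:119690204-119690233 on the plus strand (Hmgcs1), chr17:12960888-12960917 on the minus strand (Acat2), chr5:28071299-28071328 on the plus strand (Insig1) and chr9:42264381-42264410 on the minus strand (Sc5d). The others, all on the plus strand, lie at chr9:110333304-110333333 (Scap), chr13:8885576-8885605 (Idi1), chr15:82147122-82147151 (Srebf2) and chr1:74713489-74713518 (Cyp27a1). The Scap and Cyp27a1 stretches lie before the starts used here but inside the RefSeq spans of these genes, which begin at 110333288 and 74713148.

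A CCAAT box was present in 63.2% of the members' windows, in 78.9% of those of SREBP2-driven members and in 37.4% of all 32851 windows in the table. A GC box was present in 76.3% of the members' windows against 35.7% of all windows, and an E-box in 18.4% against 7.15%. The other members, not SREBP2-driven, also had these letters: a CCAAT box in 47.4%, a GC box in 68.4% and an E-box in 15.8% of their windows. For SREBP2-driven members the GC box and E-box shares were 84.2% and 21.1%. All windows include those of genes that were not tested here, so the shares do not single out SREBP targets. The exact core was rare in both sets, at 5.26% of the members' windows and 2.87% of all. It was in 2 of 19 windows of SREBP2-driven members (10.5%) and in 0% of those of other members. A match is a run of letters, not a measured binding site, and the windows of a gene with several starts can overlap.

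The level of each gene per transcript length was taken from the deposited RPKM (reads scaled to the length of the longest transcript and to the mapped reads of the library). Npc2, which hands cholesterol on inside lysosomes, was the most abundant member at 96.0 ± 18.1 RPKM (mean ± SD over all 7 libraries), followed by Nr1h2, which encodes LXRβ, at 83.1 ± 15.3 RPKM. The ranges of these genes overlapped, from 72.6 to 119 RPKM for Npc2 and from 67.5 to 115 RPKM for Nr1h2. Srebf2, the SREBP2 gene, came next at 29.1 ± 9.27 RPKM, about level with its partner Insig1 at 24.7 ± 6.47 RPKM. Scap and Srebf1 had close levels of 15.2 ± 3.83 and 15.3 ± 2.36 RPKM. Nr1h3, which encodes LXRα, stood at 3.61 ± 1.63 RPKM, far below Nr1h2, with no overlap of their ranges. Among the exporters, Abcg1 stood at 14.1 ± 2.74 RPKM and Abca1 at 1.73 ± 0.772 RPKM, also without overlap. Synthesis enzymes ran from Pmvk at 21.7 ± 4.96 RPKM down to Lss at 1.31 ± 0.504 RPKM. Ch25h, the cholesterol hydroxylase of activated macrophages, was lowest at 0.533 ± 0.475 RPKM, and rested on 2 to 33 reads a library.

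**Figure D1:**
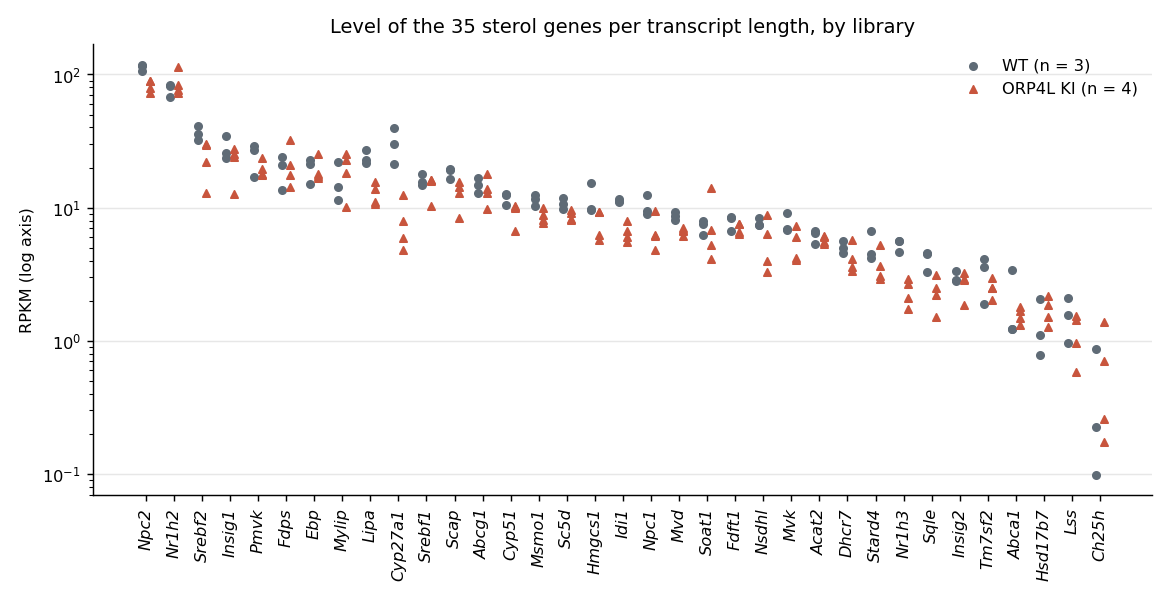
RPKM (log axis) of the 35 genes in each library, ordered by their mean over all 7 libraries. Circles are the 3 WT and triangles the 4 ORP4L KI libraries. Npc2 and Nr1h2 lead, most synthesis genes lie between 1 and 30 RPKM, and Ch25h is lowest.

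The comparison of the genotypes showed a modest, mostly downward difference. Values below are CPM, read counts scaled to a common library size by TMM, and fold changes are log2 of ORP4L KI over WT from edgeR's quasi-likelihood test with Benjamini-Hochberg adjustment over all 13462 genes. Of the 35 members, 26 had a negative fold change (74.3%), against 48.5% of all genes tested, and 24 to 29 had one under the other scalings, filters and tests. Their median log2 fold change was -0.20, and that of all genes was 0.01. At the thresholds of an unadjusted p of 0.01 and a 2-fold change, 2 members were called (5.71%), both lower in ORP4L KI, where 4.68% of all genes were called in either direction and 2.3% were called lower. The called genes were Cyp27a1 and Nr1h3. No member passed an adjusted p of 0.05 (0 of 35), a threshold that 0.0223% of all genes passed. At an unadjusted p of 0.05, 6 members passed (Idi1, Sqle, Lipa, Npc1, Nr1h3 and Cyp27a1), all lower and 17.1% of the list, where 13.7% of all genes passed and 6.86% passed as lower. DESeq2's Wald test gave 4 members an adjusted p under 0.05 (Idi1, Lipa, Nr1h3 and Cyp27a1), all lower, at a share of 5.83% over all genes. For 22 of the 35 members the 95% confidence interval of the fold change lay within 2-fold either way.

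The groups did not overlap for 9 members (25.7%), where 13.8% of all genes did not overlap and 7.38% lay lower without overlap. In all 9 every ORP4L KI library lay below every WT library: Idi1, Sqle, Srebf2, Scap, Npc1, Npc2, Lipa, Nr1h3 and Cyp27a1. Npc1 overlapped with DESeq2 size factors, with total counts alone and without a filter. The same 9 genes stood apart when ORP4L KI replicate 1 was left out, where 9.92% of all genes lay lower without overlap. That library differed from the others across the transcriptome: it was the highest or lowest of the 7 for 56.7% of all genes, and for 15 of the 35 members (42.9%). An exact two-sided permutation test of a single gene cannot fall below p = 0.0571 over the 35 splits of 4 libraries against 3. Non-overlapping groups give that value by construction, so it adds nothing to the counts above.

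**Figure D2:**
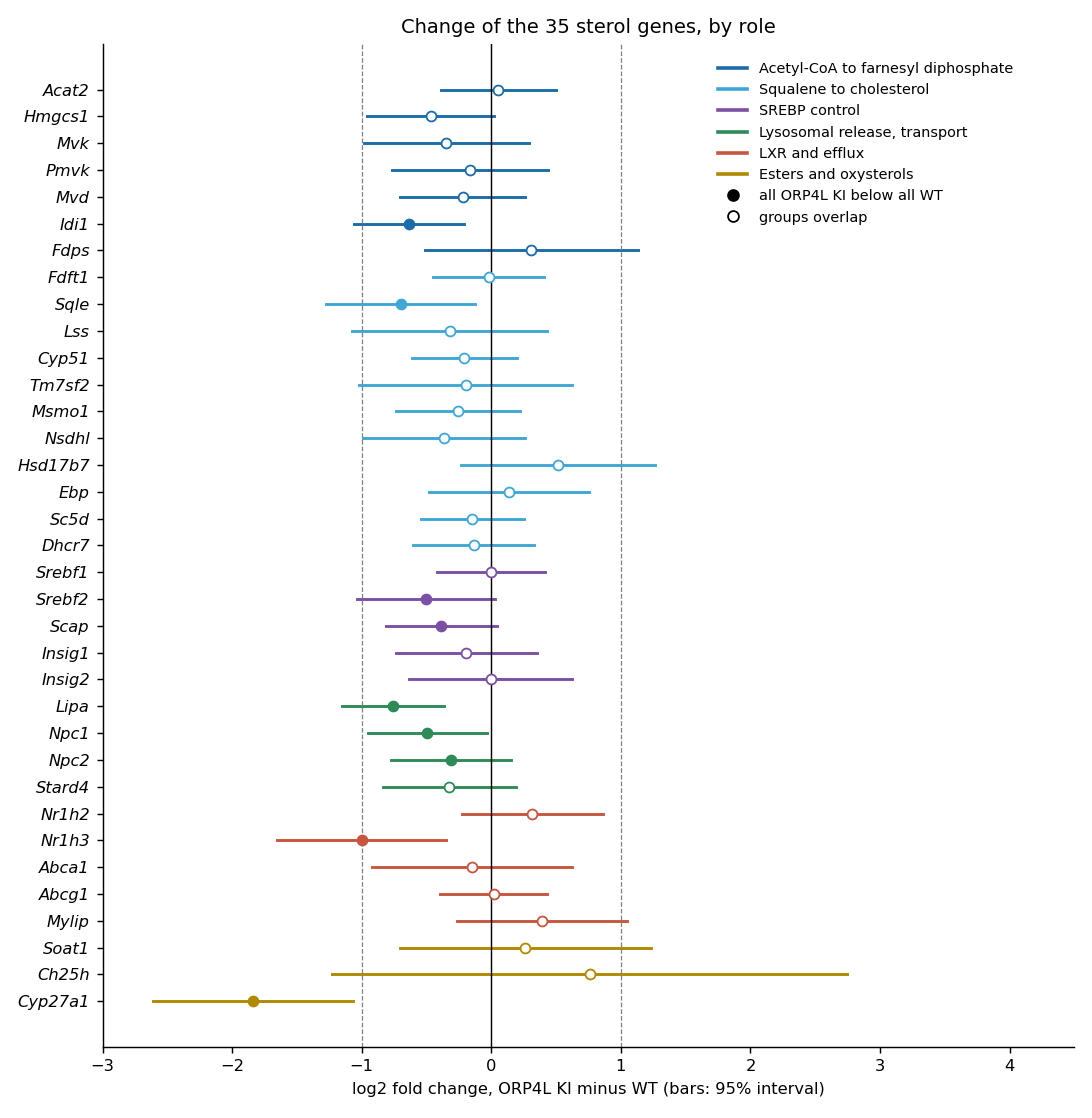
Log2 fold change of ORP4L KI over WT for the 35 genes, coloured by role, with 95% confidence intervals from the edgeR fit. Filled points mark the 9 genes whose groups did not overlap, all left of 0. Dashed lines mark a 2-fold change, reached by Cyp27a1 and Nr1h3.

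Cyp27a1, a mitochondrial hydroxylase that turns cholesterol into an oxysterol and is abundant in macrophages and liver, showed the largest fall of the members. Its gene spans chr1:74713148-74737897 on the plus strand. It had 53.8, 77.3 and 37.4 CPM in WT replicates 1, 2 and 3, and 11.3, 10.6, 24.3 and 16.7 CPM in ORP4L KI replicates 1 to 4. The highest ORP4L KI library stayed below the lowest WT library, and WT varied widely. The means were 56.2 ± 20 CPM (SD, n = 3) and 15.7 ± 6.35 CPM (SD, n = 4). The log2 fold change was -1.84 (SE 0.34, 95% interval -2.61 to -1.07, edgeR adjusted p = 0.0643). It was called in all 7 fits that left out 1 library.

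Nr1h3, the LXRα gene, spans chr2:91184061-91202829 on the minus strand. It had 9.01, 9.68 and 7.30 CPM in the WT libraries and 6.03, 4.27, 3.04 and 3.98 CPM in the ORP4L KI libraries. The ORP4L KI libraries all lay below WT. The means were 8.67 ± 1.23 CPM (SD, n = 3) and 4.33 ± 1.25 CPM (SD, n = 4), and the log2 fold change of -1 (SE 0.29, edgeR adjusted p = 0.15) sat on the 2-fold threshold. The call held in 2 of 7 fits without 1 library, those without WT replicate 3 or ORP4L KI replicate 1, and was lost in the others, where the fold change came as small as -0.86. Nr1h2, the LXRβ gene, had 156, 166 and 123 CPM in WT and 184, 135, 169 and 251 CPM in ORP4L KI. Its groups overlapped, with a log2 fold change of 0.32 (95% interval -0.23 to 0.86).

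Genes of lysosomal cholesterol release (Lipa, Npc1 and Npc2) and of sterol transport in the cytosol (Stard4) had negative fold changes, and this held for these 4 genes under every scaling, filter and left-out library tried. Lipa, the acid lipase that frees cholesterol from its esters in lysosomes, had 59.4, 67.4 and 73.3 CPM in WT and 39.2, 42.6, 41.5 and 34.2 CPM in ORP4L KI. The groups were well apart, with little spread inside either. The log2 fold change of Lipa was -0.76 (SE 0.17, edgeR adjusted p = 0.0936), and without any single library it stayed between -0.84 and -0.69. Npc1, the membrane protein that carries cholesterol out of lysosomes, had 45.6, 46.6 and 58.9 CPM in WT and 30.3, 45.5, 32.6 and 34.8 CPM in ORP4L KI. ORP4L KI replicate 2 nearly touched WT, so that another scaling ended the gap, and the log2 fold change was -0.49 (SE 0.20, edgeR adjusted p = 0.322). Npc2, the soluble partner of Npc1, had 350, 388 and 317 CPM in WT and 311, 218, 292 and 316 CPM in ORP4L KI. The groups were barely apart, since ORP4L KI replicate 4 almost equalled WT replicate 3, and the log2 fold change was -0.31 (SE 0.21, edgeR adjusted p = 0.593). Stard4, a cytosolic sterol carrier, had a log2 fold change of -0.32 (SE 0.23) with overlapping groups.

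Among the synthesis enzymes, from acetyl-CoA to farnesyl diphosphate, 5 of 7 genes had negative fold changes (6 under upper-quartile or total-count scaling) with a median of -0.22, and none was called. Idi1, the isomerase that readies the building blocks of isoprenoids, had 29.9, 33.3 and 28.7 CPM in WT and 20.8, 17.7, 23.0 and 17.2 CPM in ORP4L KI. All ORP4L KI libraries were lower, and the log2 fold change was -0.64 (SE 0.19, edgeR adjusted p = 0.159). Hmgcs1, which makes HMG-CoA and carries the core shown above, had 32.6, 34.6 and 49.7 CPM in WT and 24.7, 30.3, 33.3 and 24.3 CPM in ORP4L KI. ORP4L KI replicate 3 lay above WT replicate 1, so the groups overlapped, and the log2 fold change was -0.47 (SE 0.22, edgeR adjusted p = 0.394). The kinases Mvk and Pmvk and the decarboxylase Mvd had log2 fold changes of -0.35, -0.16 and -0.22, each with a 95% interval that included 0. Acat2, the thiolase that joins acetyl-CoA units, had 11.1 to 12.8 CPM in WT and 11.4 to 13.8 CPM in ORP4L KI, with a log2 fold change of 0.05 (95% interval -0.39 to 0.50) whose sign turned under upper-quartile and total-count scaling. Acat3 is a close paralog, and how reads shared by such genes were counted is not given in the sources used here. Fdps, the farnesyl diphosphate synthase, had 56.6 CPM in ORP4L KI replicate 1 and 18.1 to 32.7 CPM elsewhere. For Fdps the log2 fold change was 0.31 with that library and -0.06 without it, and 77.4% of its exon bases are shared with an overlapping gene on the same strand, Gm43738.

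From squalene to cholesterol, 9 of 11 genes had negative fold changes (10 under total-count scaling) with a median of -0.20, and none was called. Sqle, the squalene epoxidase and a rate-limiting step, had 8.32, 12.3 and 11.4 CPM in WT and 4.99, 7.89, 6.83 and 6.59 CPM in ORP4L KI. Every ORP4L KI library was below WT, with WT replicate 1 close above, and the log2 fold change was -0.70 (SE 0.26, edgeR adjusted p = 0.257). The cyclase Lss, the demethylase Cyp51, the reductase Tm7sf2, the methyl oxidase Msmo1 and the dehydrogenase Nsdhl had log2 fold changes from -0.37 to -0.20 with overlapping groups. Those of Sc5d and Dhcr7, which act at the end of the pathway, were -0.14 and -0.13. Fdft1, the squalene synthase, had 17.8 to 24.7 CPM in WT and 20.3 to 22.5 CPM in ORP4L KI, a log2 fold change of -0.02 (95% interval -0.45 to 0.41) whose sign turned when WT replicate 1 or 2 was left out, and 20.9% of its exon bases lie opposite exons of Ctsb. Hsd17b7, a ketoreductase of the pathway, ran the other way with 3.29, 5.09 and 8.50 CPM in WT and 7, 9.09, 8.56 and 7.46 CPM in ORP4L KI. WT replicate 3 lay inside the ORP4L KI range, and the log2 fold change was 0.51 (SE 0.33, edgeR adjusted p = 0.577). Ebp, a sterol isomerase, had 52.5 CPM in ORP4L KI replicate 1 against 27.9 to 31.5 CPM in the other ORP4L KI libraries and 23.8 to 39.7 CPM in WT. The log2 fold change of Ebp was 0.13 with that library and -0.11 without it, and its sign also turned under total-count scaling and without WT replicate 3.

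Among the genes that control SREBP, Srebf2 had 151, 149 and 171 CPM in WT and 70.9, 126, 136 and 109 CPM in ORP4L KI. ORP4L KI replicate 1 was far the lowest, and the other 3 ORP4L KI libraries also lay below WT. The log2 fold change of Srebf2 was -0.50 (SE 0.24, edgeR adjusted p = 0.399), and -0.35 without ORP4L KI replicate 1. Scap, the escort of SREBP, had 76.2, 69.9 and 73.0 CPM in WT and 42.1, 60.8, 61.2 and 59.4 CPM in ORP4L KI. The 3 higher ORP4L KI libraries were close to each other and below WT. Its log2 fold change was -0.39 (SE 0.19, edgeR adjusted p = 0.424), and -0.28 without ORP4L KI replicate 1; 18.6% of its exon bases lie opposite exons of another gene, 5830462I19Rik. Insig1, an SREBP2 target that holds SCAP in the endoplasmic reticulum, had 57.8 to 82.7 CPM in WT and 40.1 to 73.4 CPM in ORP4L KI. Its log2 fold change of -0.19 (95% interval -0.74 to 0.35) became -0.04 without ORP4L KI replicate 1. Its relative Insig2 and Srebf1 both had fold changes of -0.00 whose sign turned with DESeq2's size factors.

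**Figure D3:**
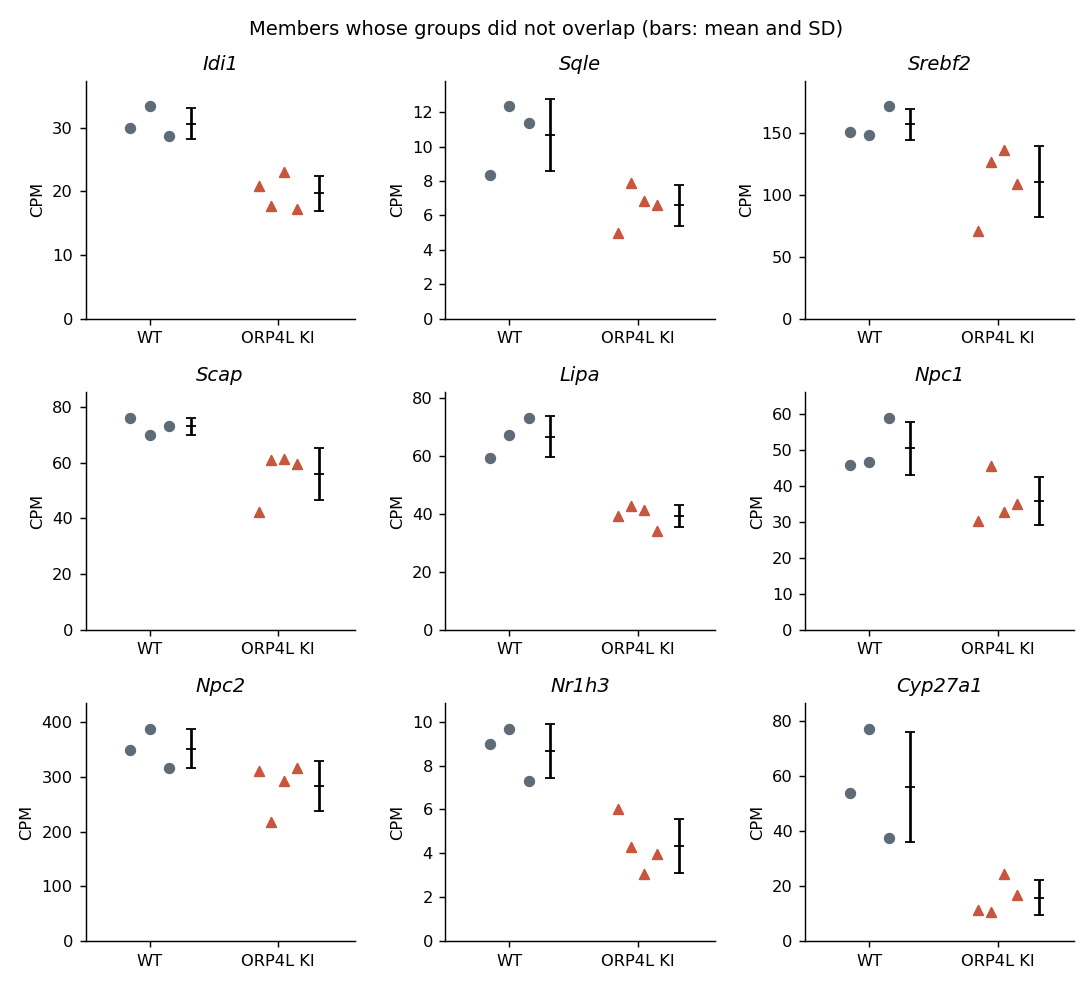
CPM (axes start at 0) of the 9 genes whose groups did not overlap. Circles are WT libraries (n = 3), triangles ORP4L KI libraries (n = 4), and bars show the mean ± SD. Lipa and Idi1 show small spread in both groups, Cyp27a1 the largest relative fall, and Npc1 and Npc2 the narrowest gap.

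Genes of LXR and efflux did not move as a group. Abca1, which loads cholesterol onto apolipoprotein A-I, had 11.6, 12.6 and 31.7 CPM in WT and 16.1, 16.9, 17.4 and 16.6 CPM in ORP4L KI. The ORP4L KI libraries were almost equal and the WT libraries were not, since WT replicate 3 stood far above the others. The log2 fold change of Abca1 was -0.15 (95% interval -0.92 to 0.62), and 0.47 without WT replicate 3, so its sign rested on that library. Abcg1, which exports sterol to lipoprotein particles, had 79.6, 74.5 and 88.4 CPM in WT and 67.8, 96.3, 81.3 and 81.8 CPM in ORP4L KI. Its groups overlapped and its log2 fold change was 0.02 (95% interval -0.40 to 0.43), a sign that turned under upper-quartile and total-count scaling. Mylip, the ubiquitin ligase, had 31.6, 42.7 and 59.4 CPM in WT and 36.1, 69.8, 68.9 and 58.7 CPM in ORP4L KI. Its log2 fold change was 0.39 (95% interval -0.26 to 1.05). Srebf1, counted here as an LXR target, had 61.5 to 71.4 CPM in WT and 53.4 to 75.5 CPM in ORP4L KI.

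Set side by side, the median log2 fold change of the 20 SREBP2-driven members was -0.20, with 16 negative and 2 non-overlapping (Idi1 and Sqle), a share of 10% near the 13.8% of all genes (7.38% lower). The 4 LXR-driven members had a median of 0.01, with 2 negative and none non-overlapping. None of either list was called. In single libraries, the median deviation of the SREBP2-driven members from the WT mean, on the log2 scale, was 0.04, 0.06 and -0.03 in WT and -0.14, -0.24, -0.16 and -0.11 in ORP4L KI. The ORP4L KI medians were all below the WT medians, by small amounts. For the LXR-driven members the same medians were -0.23, -0.08 and 0.29 in WT and -0.25, 0.14, 0.07 and 0.11 in ORP4L KI, which overlapped. The difference between the lists was not tested, as members share libraries and are not replicates. The other 11 members (SREBP control, lysosome, LXR receptors, esters and oxysterols) had a median of -0.39. They held 7 of the 9 non-overlapping genes, a share of 63.6% against 13.8% of all genes (7.38% lower). Both called genes were among them, a share of 18.2% against 4.68% of all genes (2.3% lower). This list is what the other lists left over and was set with earlier results known, so its shares are descriptions.

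**Figure D4:**
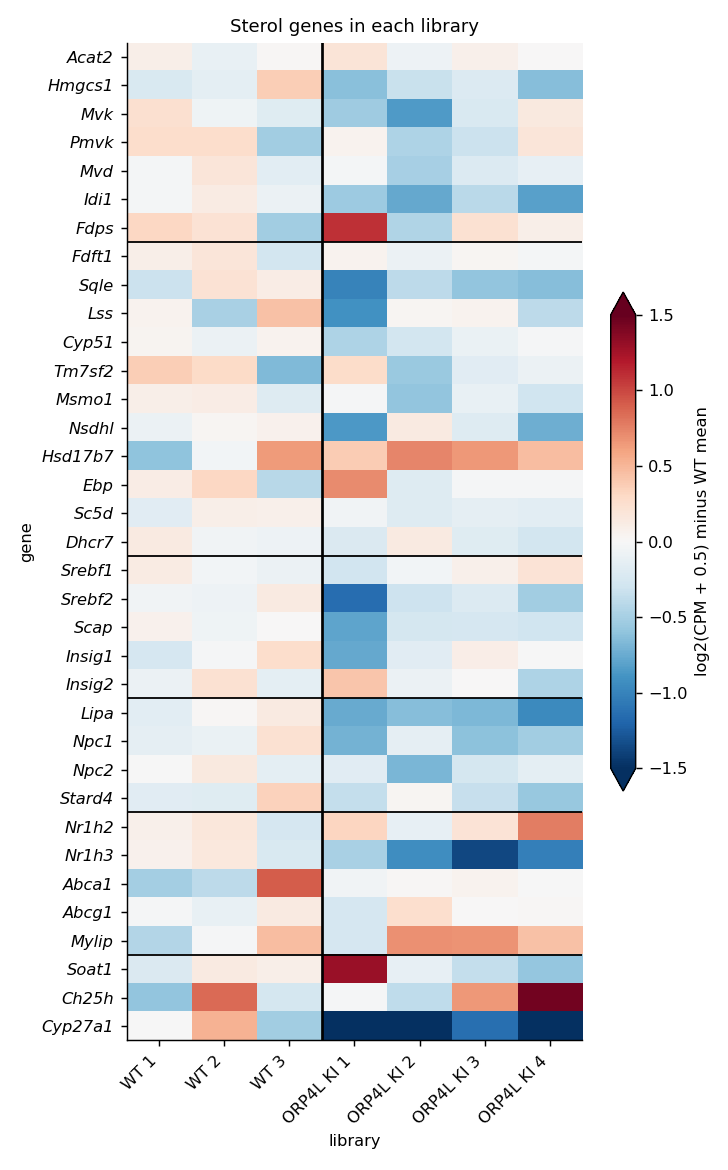
Deviation of log2(CPM + 0.5) from the WT mean for each gene (rows, in order of role and divided by lines) in each library (columns, WT left of the vertical line). Blue is lower and red higher, and colours end at 1.5 either way. Cyp27a1, Nr1h3, Lipa, Idi1 and Sqle are blue in all 4 ORP4L KI libraries, and Abca1 is red in WT replicate 3.

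Soat1, which esterifies cholesterol for storage, had 27.8, 35.8 and 34.4 CPM in WT and 80.2, 29.9, 25.2 and 21.5 CPM in ORP4L KI. The value of ORP4L KI replicate 1 stood alone. The log2 fold change of Soat1 was 0.26 (95% interval -0.71 to 1.23), and -0.36 without that library. Ch25h had a log2 fold change of 0.76 (95% interval -1.23 to 2.74), so no difference was detectable. Its reads were few and varied widely between libraries, at 7, 4, 17 and 33 in ORP4L KI. The log2 fold change of Ch25h ran from 0.29 without WT replicate 1 to 2.15 without WT replicate 2. That library held 19 of its WT reads, the other WT libraries having 2 and 4.

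Of 24 other genes of sterol handling that are not among the 35, 14 had negative fold changes (19 under total-count scaling) with a median of -0.11. A single gene of these was called (4.17%, near the 4.68% of all genes), Pltp, a phospholipid transfer protein and LXR target. Pltp had 57.1, 62.8 and 27.2 CPM in WT and 23.5, 16, 19.6 and 17.2 CPM in ORP4L KI. All ORP4L KI libraries were lower, with a log2 fold change of -1.36 (SE 0.29, edgeR adjusted p = 0.0776). At an unadjusted p of 0.05, 3 of the 24 passed, all lower, a share of 12.5% where 13.7% of all genes passed and 6.86% passed as lower.

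Markers of other blood cells moved with these differences. All 13 macrophage markers examined had negative fold changes, with a median of -0.86 and 6 that did not overlap, and their summed share of counts was 0.0514% to 0.0824% in WT and 0.0255% to 0.0321% in ORP4L KI. All 9 dendritic cell markers also had negative fold changes, with a median of -1.44 and shares of 0.0557% to 0.0785% against 0.0132% to 0.0274%. Csf1r, the receptor that defines macrophages and monocytes, fell from 267 to 118 CPM on average with a log2 fold change of -1.17 (edgeR adjusted p = 0.0655). Cyp27a1, Nr1h3 and Lipa, genes known to be abundant in macrophages, were also lower, and were named here with their values known. For Abca1, Abcg1, Soat1 and Ch25h the log2 fold changes were -0.15, 0.02, 0.26 and 0.76, with overlapping groups. Of these, Ch25h is the hydroxylase of activated macrophages named above. The confidence intervals of Abca1 (-0.92 to 0.62) and Ch25h (-1.23 to 2.74) included the macrophage marker median of -0.86. Those of Abcg1 (-0.40 to 0.43) and Soat1 (-0.71 to 1.23) did not, but Soat1 was at -0.36 without ORP4L KI replicate 1. Whether these genes followed the macrophage markers was not tested. Granulocyte markers took 0.264% to 0.567% of counts in WT and 1.14% to 12.2% in ORP4L KI, with the top share in ORP4L KI replicate 1, the library in which Soat1, Ebp and Fdps stood out. Of the granulocyte markers 13 of 14 had positive fold changes, with a median of 4.35. Erythroid markers took 0.586% to 0.939% in WT and 0.0760% to 0.465% in ORP4L KI, although 7 of 11 had positive fold changes. T-cell markers, by contrast, overlapped at 0.239% to 0.348% and 0.131% to 0.492%, lowest in ORP4L KI replicate 1, and so did B-cell markers at 0.0357% to 0.0595% and 0.0207% to 0.0583% and NK-cell markers at 0.0667% to 0.0850% and 0.0386% to 0.120%. Single genes of these lists were less even: all 10 B-cell markers had negative fold changes, with a median of -0.33 and none called. The median over NK-cell markers was -0.80, and 4 of 8 were called lower without overlap (Ncr1, Klrb1c, Klre1 and Gzma), while Nkg7 and Eomes lay higher without overlap and were not called. All 20 proliferation markers had positive fold changes, with shares of 0.0781% to 0.125% in WT and 0.139% to 0.231% in ORP4L KI, beside negative fold changes of most synthesis enzymes. The counts of negative and positive fold changes given for macrophage, dendritic cell, granulocyte and proliferation markers were equal under all 4 scalings. No gene of these lists was at 0 in any library. In such bulk samples fewer cells of a type and less RNA per cell cannot be told apart, and the part of other cells in the sterol gene differences was not tested.

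**Figure D5:**
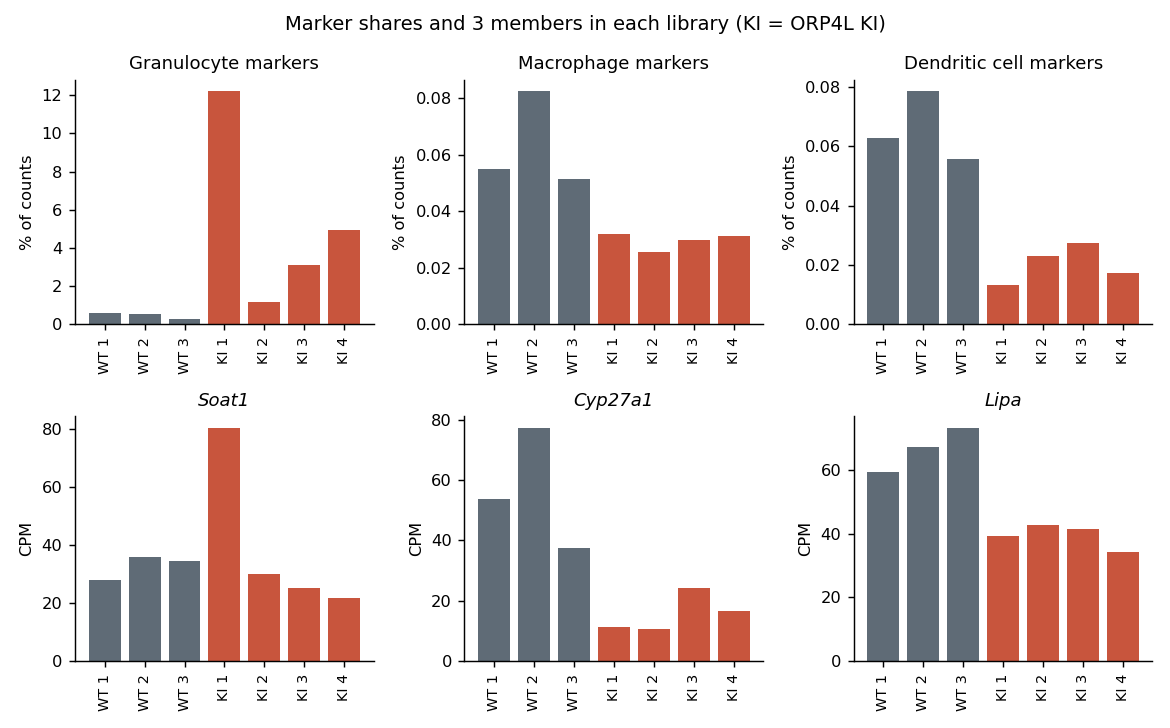
Summed share of counts of 14 granulocyte, 13 macrophage and 9 dendritic cell markers (upper row, % of counts) and CPM of Soat1, Cyp27a1 and Lipa (lower row) in each library, 1 bar per library with axes from 0. Macrophage and dendritic cell shares, Cyp27a1 and Lipa are lower in all 4 ORP4L KI libraries than in WT, and ORP4L KI replicate 1 is highest for granulocyte markers and for Soat1.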

How the data were processed

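RNA was sequenced from T-cells of 4 ORP4L KI and 3 WT mice. The authors trimmed adapters, dropped reads shorter than 17 bases, mapped the rest to mouse mRNA sequences with FANSe3 and deposited, per gene with splice variants merged, the raw read count and the RPKM. Per the labels the genome build was mm10, and strand use is not given in the sources used here. The deposited RPKM served to compare levels between genes and the counts served all tests. Genes were filtered with edgeR's filterByExpr (minimum count 10, minimum total 15), scaled by TMM and fitted without covariates by edgeR 4.0.16's quasi-likelihood test in R 4.3.3, over all genes passing the filter. Thresholds followed the study's volcano plot (unadjusted p of 0.01, log2 fold change of 1). The standard error of a fold change and its interval come from that test. DESeq2 1.42.0's Wald test, other scalings and filters, a replicate block and each library left out were alternatives. Motif letters, coordinates and exon overlaps were read from RefSeq and GENCODE on GRCm38. Single genes were compared by exact permutation with SciPy 1.17.1.

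Samples were grouped by genotype and replicate number in the labels, and no pair of libraries of the same genotype agreed within sampling noise. Xist, a gene active in females, was at 373 CPM in WT replicate 1 and 392 and 651 CPM in ORP4L KI replicates 1 and 2. In the other libraries it was at 15.7 to 22.3 CPM, and the Y-linked gene Ddx3y was at 121 to 208 CPM. By these genes both genotypes held female and male mice. Sex was not in the fit, and the members Ebp and Nsdhl lie on the X chromosome. All 35 members and Osbp2 are named, and of the other sterol genes those past the thresholds. Csf1r is named as a defining marker, 6 NK-cell markers were named after their values were seen, and Acat3, Ctsb, Gm43738 and 5830462I19Rik as genes that can share reads. The 35 members, the role lists and the marker lists were chosen with earlier results of these data known, so their counts are descriptions. In the marker lists, Trac and Ahsp had no row in the tables used here. A floor of 3 counts corresponds to between 0.153 and 0.232 CPM, covers counting error only and leaves out the larger spread between mice. The scripts were tested on simulated data.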

Additional observations from a re-analysis of the deposited data

Results flagged for a closer look

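In groups of 4 libraries, a value was marked where its gap to the nearest library exceeded Dixon's 95% critical value for the share of the whole range. Of 35 ORP4L KI groups examined, 1 per member, 3 were marked, where chance would mark about 1.75, and all 3 concern ORP4L KI replicate 1. Ebp had 52.5 CPM there and 27.9 to 31.5 CPM in the other ORP4L KI libraries. Scap had 42.1 CPM there against 59.4 to 61.2 CPM. Soat1 had 80.2 CPM there against 21.5 to 29.9 CPM. In this library granulocyte markers took 12.2% of the counts and its 10 most abundant genes 14.3%, values whose part in these differences was not tested. Scap stayed lower in ORP4L KI without this library, with a log2 fold change of -0.28, while Ebp and Soat1 changed sign, to -0.11 and -0.36.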

How the results depend on the processing

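Across single genes, 450 of 486 alternative values kept their sign and their side of the thresholds, 9 lost a call (all Nr1h3), none gained 1 and 27 changed sign, all of uncalled genes. Members called at the thresholds numbered 2, and 1 (Cyp27a1) with DESeq2 size factors, with no filter, with DESeq2's Wald test and with or without the replicate block on 6 libraries. In those settings 3.32% to 6.35% of all genes were called. Leaving out 1 library gave 1 to 2 members, where 2.39% to 6.03% of all genes were called. The number at an adjusted p of 0.05 was 0, and it was 1 (Cyp27a1) with total counts alone or no filter, 4 with DESeq2's Wald test, and 0 to 1 with a library left out (1 without ORP4L KI replicate 2). The count over all genes moved as well. It was 3 of 13462, then 113 of 13462 with total counts alone, 176 of 18501 with no filter and 784 (5.83%) with DESeq2's Wald test. With a library left out it ran from 0 to 342, the highest (of 13351) without ORP4L KI replicate 2. Non-overlapping members numbered 9 and ran from 8 to 13 over scalings and filters, where 11.6% to 14.9% of all genes did not overlap. Npc1 was not among them under DESeq2 size factors, total counts alone and no filter. With a library left out the members ran from 9 to 16, where 16.4% to 26.9% of all genes did not overlap. The 16 (14 lower, 2 higher) came without WT replicate 3, where the share over all genes was the highest, 26.9%. The median of the SREBP2-driven members was -0.20, -0.27 with upper-quartile scaling and -0.356 with total counts alone, which moved the median of all genes to -0.129. Relative to the median of all genes it was -0.217 with TMM and -0.227 with total counts. With a library left out it ran from -0.251 to -0.176. The median of the LXR-driven members was 0.01, -0.0538 with upper-quartile scaling and -0.128 with total counts alone, and with a library left out it ran from -0.046 to 0.281, the highest without WT replicate 3.

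What the numbers in the labels mark is not given in the sources used here. Same-numbered libraries had correlations of 0.17, -0.58 and 0.029 in their deviations from the group means. So few libraries cannot settle whether the numbers pair mice. With the replicate number as a replicate block, without ORP4L KI replicate 4, the SREBP2-driven median was -0.256, the LXR-driven median 0.00546 and 466 genes were called, against 442 on the same 6 libraries without the block (the same fit as leaving out ORP4L KI replicate 4). Insig2 turned to 0.118 and Abca1 to 0.00985 with the replicate block, and Insig2 to 0.127 on those libraries without it. Signs also turned for Srebf1 (0.0103) and Insig2 (0.00982) with DESeq2 size factors, for Srebf1 (0.0102) and Insig2 (0.00955) with its Wald test, for Abcg1 (-0.0428) and Acat2 (-0.011) with upper-quartile scaling, and for Ebp (-0.0313), Abcg1 (-0.114) and Acat2 (-0.101) with total counts. With a library left out, the genes whose sign turned ran from -0.0631 to 0.494 (Fdps), -0.148 to 0.072 (Fdft1), -0.108 to 0.299 (Ebp), -0.0838 to 0.0789 (Srebf1), -0.189 to 0.13 (Insig2), -0.403 to 0.474 (Abca1), -0.0877 to 0.0927 (Abcg1), -0.36 to 0.46 (Soat1) and -0.00114 to 0.0988 (Acat2). The causes were not tested. Depth limited Ch25h, which dropped out of the fits that asked for 10 counts in every library or left out ORP4L KI replicate 3 or 4.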
